A study of Mus musculus with 21 samples.

Results

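The Vipr2 segment is a run of 5 neighbouring protein-coding genes on mouse chromosome 12, read here from 21 arrays of dentate gyrus RNA. The genes are Vipr2, Wdr60, Esyt2, Ncapg2 and Ptprn2, in that order along the chromosome. They are 5 of the 18193 genes that a probe set of 1 symbol represents on the array, and they were taken by name, through the array annotation, by a rule that uses no intensity, although earlier results of these data were known when the genes were listed. They carried 7 of the 45037 probe sets that were not controls, and 4 of those 7, for Wdr60, Esyt2, Ncapg2 and Ptprn2, were bright enough to enter the tests with 27022 probe sets in all. Vipr2 itself, a second probe set for Ptprn2 and a second one for Esyt2 were below the filter limit.

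The study measured mice with a tetracycline-controlled transgene for the Nogo receptor NgR, whose gene is Rtn4r. The tetracycline transactivator tTA switches on such a responder transgene when doxycycline is absent, so bitransgenic mice carry both parts and monotransgenic mice carry 1 of them. There were 3 arrays in each of 7 groups. In set 1 these were bitransgenic mice on water whose doxycycline had been removed to induce NgR, bitransgenic mice kept on a doxycycline diet to hold NgR off, and monotransgenic mice on water with doxycycline removed, which lacked tTA. Experiment 2 held bitransgenic mice on water that had never received doxycycline and monotransgenic mice on water. Set 3 held bitransgenic and monotransgenic mice with no treatment given. Which of the 2 transgenes the monotransgenic mice of experiment 2 and set 3 carried is not stated, nor are the tTA line, its promoter, the strain, the age or the number of mice per array. Nothing says that the 3 samples of a group came from different animals, and the error terms then describe sample-to-sample spread, part of which may be technical. All 12 bitransgenic arrays, including those on the doxycycline diet, came from mice that carry tTA.

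A transgene often removes or rearranges DNA where it lands, and genes at that place can then differ between carriers and non-carriers whether or not the transgene is switched on. In a widely used forebrain tTA line the insertion is known to lie in this stretch of chromosome 12. Vipr2 encodes VPAC2, a receptor for the neuropeptides VIP and PACAP. Ptprn2 encodes phogrin, a transmembrane protein of dense-core secretory vesicles. Esyt2 encodes an extended synaptotagmin that tethers the endoplasmic reticulum to the plasma membrane. Ncapg2 encodes a subunit of condensin II, which compacts chromosomes. Wdr60, also called Dync2i1, encodes an intermediate chain of dynein-2, the motor of retrograde transport in cilia.

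The reference gene table placed no other protein-coding gene between Vipr2 and Ptprn2, although 5 long non-coding RNAs, 1 miRNA, 3 pseudogenes and 2 small nuclear RNAs lay there. The promoters of the 4 tested genes are shown because these genes were lower together in set 1. Each is 250 bases before to 50 bases after the start site, 5′ to 3′ on the gene's own strand, from RefSeq on build GRCm38.p6. Capitals mark a match to GGGCGG, the core of the GC box (written as its reverse complement where it lies on the other strand), or to TATAAA, a core promoter motif.
Wdr60: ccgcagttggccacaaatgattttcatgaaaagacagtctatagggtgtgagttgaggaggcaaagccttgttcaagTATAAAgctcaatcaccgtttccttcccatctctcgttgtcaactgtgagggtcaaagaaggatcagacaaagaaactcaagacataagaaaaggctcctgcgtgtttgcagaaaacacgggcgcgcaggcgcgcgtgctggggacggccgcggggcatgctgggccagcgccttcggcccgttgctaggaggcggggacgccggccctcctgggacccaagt
Esyt2: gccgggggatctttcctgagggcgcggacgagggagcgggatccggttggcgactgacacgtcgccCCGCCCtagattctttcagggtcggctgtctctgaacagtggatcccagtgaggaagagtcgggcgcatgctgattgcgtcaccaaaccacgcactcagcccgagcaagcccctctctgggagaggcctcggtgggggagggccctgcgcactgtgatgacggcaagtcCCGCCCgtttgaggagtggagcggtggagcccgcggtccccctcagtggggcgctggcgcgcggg
Ncapg2: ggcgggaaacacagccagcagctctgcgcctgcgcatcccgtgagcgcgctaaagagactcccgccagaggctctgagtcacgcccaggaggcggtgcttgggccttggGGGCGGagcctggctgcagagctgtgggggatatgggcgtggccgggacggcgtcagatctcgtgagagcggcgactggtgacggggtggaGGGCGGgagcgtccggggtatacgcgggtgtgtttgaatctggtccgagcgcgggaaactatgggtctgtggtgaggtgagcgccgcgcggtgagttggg
Ptprn2: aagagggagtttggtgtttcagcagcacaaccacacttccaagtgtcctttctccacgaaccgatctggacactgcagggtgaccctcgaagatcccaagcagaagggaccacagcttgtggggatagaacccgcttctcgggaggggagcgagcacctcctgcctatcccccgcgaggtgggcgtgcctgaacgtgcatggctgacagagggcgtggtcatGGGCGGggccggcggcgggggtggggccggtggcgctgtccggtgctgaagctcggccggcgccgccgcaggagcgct
The Wdr60 promoter is chr12:116262976-116263275 on the minus strand. The Esyt2 promoter is chr12:116280972-116281271, that of Ncapg2 is chr12:116405186-116405485 and that of Ptprn2 is chr12:116485470-116485769, all on the plus strand. The Vipr2 promoter, chr12:116077476-116077775 on the plus strand, is not printed. All 5 were found in the table. Their GC content was 65.3% for Vipr2, 56.0% for Wdr60, 68.0% for Esyt2, 68.0% for Ncapg2 and 66.0% for Ptprn2, against a median of 52.7% over 32851 promoters of the same length. The segment promoters held 18, 19, 28, 30 and 24 CpG dinucleotides in the same order, against a median of 7. Both strands were searched for GGGCGG (the GC box core), for TATAAA (the TATA box), for CCAAT (the CCAAT box), for TGACGTCA (the cAMP response element) and for CACGTG (an E-box). GGGCGG occurred in 4 of the 5 windows, those of Vipr2, Esyt2, Ncapg2 and Ptprn2, and in 35.7% of all promoters. TATAAA occurred in the Wdr60 window alone among the 5, with its first base at −173 from the start site, and in 13.6% of all promoters. The other motifs were in none of the 5 windows, and in 37.4%, 1.8% and 7.2% of all promoters for the CCAAT box, the cAMP response element and the E-box. A match is a description of the letters and not of a bound site.

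The arrays fitted their tissue and transgene labels on the genes that could check them. Markers of dentate granule cells were bright in every array, with Calb1, a calcium buffer, at 3750 to 7490, the desmosomal gene Dsp at 2800 to 6000, and the transcription factor gene Prox1 at 318 to 951, in the deposited intensity scale used throughout for levels. Rtn4r read 253.6 to 1469 in the 9 bitransgenic arrays without a doxycycline diet, and 63.75 to 185.2 in the other 12 arrays, with no overlap. The diet arrays, at 111.2, 87 and 73.1, sat among the monotransgenic arrays. Experiment 2 varied more than the rest. Its actin 3′ to 5′ log2 ratio, a sign of RNA integrity that is higher in degraded RNA, was 4.84 to 6.45, against 4.63 to 5.12 in set 1 and 4.17 to 4.63 in set 3. The median standard deviation of a probe set within a group was 0.31 in bitransgenic and 0.28 in monotransgenic arrays of experiment 2 on the log2 scale, and 0.16 to 0.18 in the other 5 groups.

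The brightest member, Ptprn2, was lower in set 1 in every bitransgenic array, on or off doxycycline, than in any monotransgenic array. With doxycycline removed Ptprn2 read 224.4, 220.9 and 351.9, and on the doxycycline diet it read 181.1, 167.9 and 258.7, against 391.9, 425.6 and 401.5 in monotransgenic arrays. The group means were 265.7 ± 74.64 with doxycycline removed and 202.6 ± 49.06 on the diet, against 406.3 ± 17.36 in monotransgenic arrays (SD, n = 3 each). These are ratios of 0.654 and 0.499 to the monotransgenic mean. Every monotransgenic array lay above every bitransgenic one, and the diet group had the lowest mean, while its Rtn4r differed from the monotransgenic arrays by 0.14 ± 0.40 on the log2 scale (SE). The share of all probe sets with such an order over the set 1 arrays was not computed.

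Wdr60 read 50.82, 30.03 and 27.68 with doxycycline removed and 30.06, 28.03 and 36.58 on the diet, against 49.49, 56.23 and 56.03 in set 1 monotransgenic arrays. All 3 diet arrays were below the lowest monotransgenic array, while 1 array with doxycycline removed was above it. Esyt2 read 40.64, 31.82 and 26.83 with doxycycline removed and 38.62, 23.16 and 19.14 on the diet, against 52.88, 56.21 and 40.51 in monotransgenic arrays. The highest Esyt2 value with doxycycline removed exceeded the lowest monotransgenic value by a small margin, and the diet group did not overlap. Ncapg2 read 18.84, 50.4 and 40.18 with doxycycline removed and 28.58, 35.35 and 31.02 on the diet, against 51.47, 54.35 and 64.33 in monotransgenic arrays. None of the 6 bitransgenic arrays reached the monotransgenic range of Ncapg2 in the deposited values, although 1 did after quantile normalization. The ratios of the diet mean to the monotransgenic mean were 0.585 for Wdr60, 0.541 for Esyt2 and 0.558 for Ncapg2, and those of the mean with doxycycline removed were 0.671, 0.664 and 0.643 in that order.

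**Figure D1:**
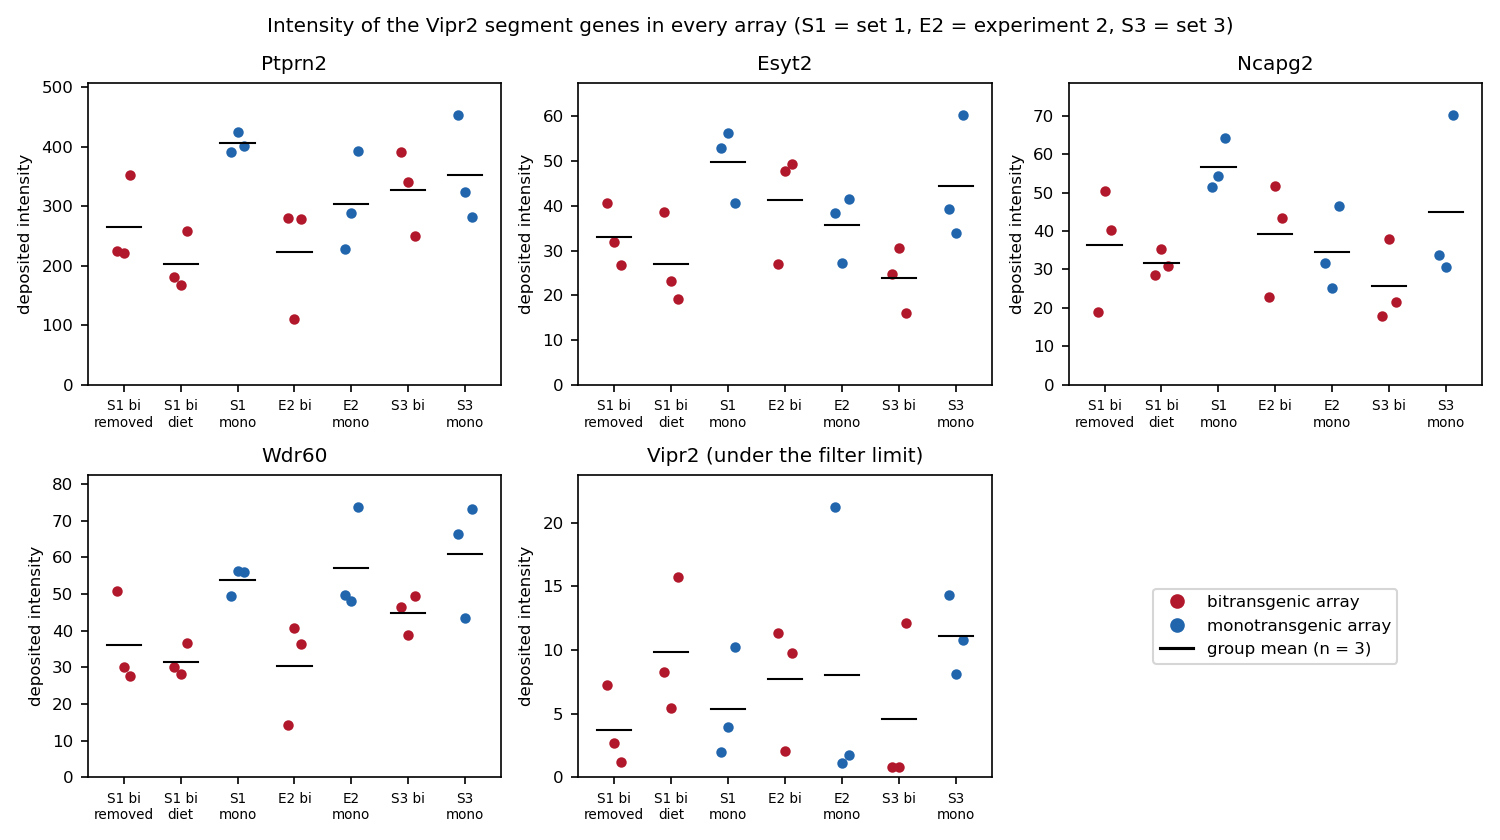
Deposited intensity (vertical axes, linear, starting at 0) of the brightest probe set of each segment gene in every array, with 1 point per array and a bar at the mean of each group of 3. In set 1 all 6 bitransgenic arrays lie below the 3 monotransgenic arrays for Ptprn2, while Vipr2 stays at 21.2 or below everywhere and shows no order by genotype.

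In the fit over all 27022 probe sets by limma on log2(intensity + 16), none of the 4 members passed the adjusted threshold of 0.05 on the diet against monotransgenic comparison, in which 1 probe set passed (0.0037%). Ptprn2 had a log2 difference of −0.98 ± 0.27 (SE), and ranked 54 by p over all probe sets (limma adjusted p = 0.654). The differences were −0.68 ± 0.24 for Esyt2, −0.64 ± 0.28 for Ncapg2 and −0.59 ± 0.25 for Wdr60, each with a limma adjusted p of 1. All 4 members were thus lower at an unadjusted p under 0.05, as were 1.96% of all probe sets tested. All 4 also had groups that did not overlap with the diet group lower, as did 6.72% of all probe sets. Their median difference was −0.66, against 0.003 over all probe sets. The groups differ both in carrying tTA and in the doxycycline diet, which cannot be told apart in this comparison. With array weights Ptprn2 alone of the 4 passed, with an adjusted p of 0.0443 by limma. Over the other settings its adjusted p ran up to 0.918.

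With doxycycline removed the same 4 genes were again below the monotransgenic mean, by less. The log2 differences were −0.59 ± 0.27 for Ptprn2, −0.48 ± 0.28 for Ncapg2, −0.41 ± 0.25 for Wdr60 and −0.39 ± 0.24 for Esyt2 (SE), with limma adjusted p of 0.672, 0.837, 0.843 and 0.851. None passed, against 9 of all probe sets (0.0333%), and Ptprn2 alone was lower at an unadjusted p under 0.05, where 3.58% of all probe sets were. It was also the single member without overlap between the groups, a state shared by 9.06% of probe sets. The median was −0.45, against 0.003 over all probe sets. The count of members without overlap reached 3 without removed replicate 1 or monotransgenic replicate 1, and 2 without removed replicate 2, without monotransgenic replicate 3, or on the deposited scale. The 2 comparisons share the monotransgenic arrays, so their sizes stand side by side and are not independent.

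Removing doxycycline, which raised Rtn4r by 2.30 ± 0.40 log2 units over the diet (SE, limma adjusted p = 0.0486), left the segment genes without a called difference. The differences of removed minus diet were 0.39 for Ptprn2, 0.29 for Esyt2, 0.18 for Wdr60 and 0.16 for Ncapg2, each with a limma adjusted p of 1. The median was 0.24, against 0 over all probe sets. None of the 4 was lower, so 0 members count among the 2.52% of probe sets lower at an unadjusted p under 0.05 or the 6.96% lower without overlap, and 0.0185% of all probe sets passed the adjusted threshold in either direction. Without removed replicate 1 the Wdr60 difference was −0.03, and without removed replicate 2 that of Ncapg2 was −0.03. The 95% intervals of the differences were −0.16 to 0.94 for Ptprn2, −0.20 to 0.79 for Esyt2, −0.33 to 0.69 for Wdr60 and −0.42 to 0.74 for Ncapg2, and each includes 0.

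All 6 set 1 bitransgenic arrays and the 3 monotransgenic arrays were compared by an exact two-sided permutation test of each gene over 84 labelings. Ptprn2 was lower by a log2 difference of −0.79 (exact p = 0.0119, the smallest that this design allows). The difference was −0.50 for Wdr60 (exact p = 0.0357), −0.53 for Esyt2 (exact p = 0.0476) and −0.56 for Ncapg2 (exact p = 0.0476). Vipr2 differed by 0.08 (exact p = 0.714). These are single-gene values, for 5 genes, with no adjustment, and the test within set 1 alone was not planned. With 1 array left out the exact p of Ptprn2 was 0.0536 without removed replicate 2 or diet replicate 3, and it was under 0.05 in the other 7 of 9 fits. Esyt2 kept an exact p under 0.05 only without removed replicate 1, Ncapg2 only without removed replicate 2, and Wdr60 only without removed replicate 1 or monotransgenic replicate 1. The highest exact p without 1 array was 0.107 for Esyt2, 0.143 for Ncapg2 and 0.0893 for Wdr60.

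**Figure D2:**
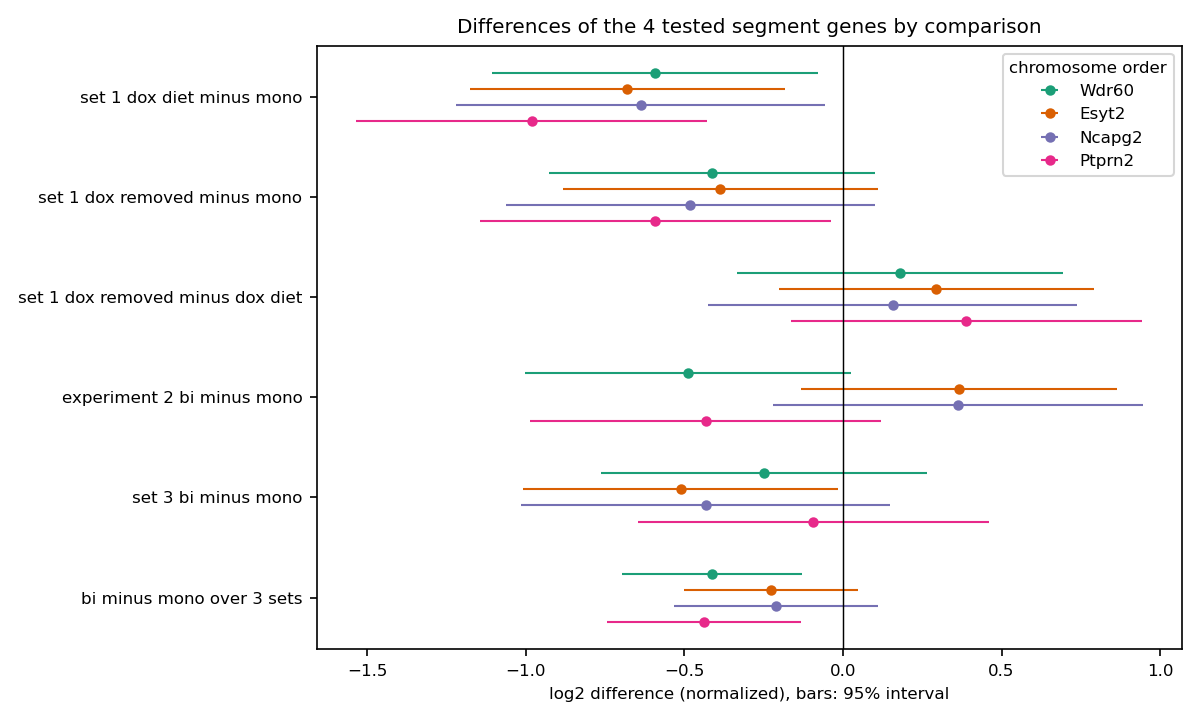
Log2 difference (horizontal axis, normalized scale) of Wdr60, Esyt2, Ncapg2 and Ptprn2 in 6 comparisons, with points at the limma estimate and bars for its 95% interval. All 4 intervals of the diet comparison in set 1 lie below 0, while Esyt2 and Ncapg2 of experiment 2 are on the positive side with intervals that include 0.

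Of 12 cell marker lists, 3 had summed intensities that were lower in every set 1 bitransgenic array than in any monotransgenic one. The summed intensity of 5 meningeal and fibroblast markers was 60.34 to 108.8 with doxycycline removed and 83.08 to 122.6 on the diet, against 703.9 to 867.2 in monotransgenic arrays. In monotransgenic arrays most of that sum was Ogn, an extracellular matrix proteoglycan gene, which read 11.7 to 26.78 with doxycycline removed and 8.538 to 26.82 on the diet, against 555.7 to 728.3 in monotransgenic arrays. Of the 4 markers tested, Ogn alone was called with doxycycline removed against monotransgenic (−4.17, limma adjusted p = 0.0338), and 0 were called on the diet, where Ogn stood at −4.37 (limma adjusted p = 0.0592). The proteoglycan gene Lum, which averaged 42.3 over all arrays, differed by −1.48 with doxycycline removed (limma adjusted p = 0.0557) and by −1.25 on the diet (limma adjusted p = 0.361). The proteoglycan gene Dcn and the collagen genes Col1a1 and Col1a2 averaged 17.2, 9.71 and 18.1 over all arrays. Dcn differed by −0.19 with doxycycline removed and by −0.01 on the diet. Col1a2 was higher, by 0.35 and 0.50 in that order, and Col1a1 was not tested. The summed intensity of 8 dentate granule cell markers was 14240 to 17400 with doxycycline removed and 15180 to 16990 on the diet, against 18160 to 21270 in monotransgenic arrays. Of these 8 markers, 7 were lower with doxycycline removed and 6 on the diet. Tdo2 was higher in both, by 0.34 and 0.43 on the log2 scale. The summed intensity of 6 markers of CA3, CA2 and hilar mossy cells was 7457 to 7959 with doxycycline removed and 7489 to 7928 on the diet. In monotransgenic arrays it was 8024 to 9381, and 0 of the 6 were called by limma in either comparison. Most of that sum was Pcp4, with log2 differences of −0.23 with doxycycline removed and −0.13 on the diet. Of the 6 markers, 4 were lower with doxycycline removed and 5 on the diet. Amigo2 was higher in both, by 0.13 and 0.24, and Calb2 differed by 0.81 and −0.36. With doxycycline removed alone, the sum of 4 CA1 markers was 306.9 to 396.7, also below monotransgenic arrays, at 449.9 to 508.1. Most of it was Wfs1, with a log2 difference of −0.41. Fibcd1 and Pou3f1 differed by −0.38 and −0.77, and Mpped1 by 0.75. The sum of 4 microglia markers was 947.2 to 1117, below monotransgenic arrays, at 1189 to 1614. Most of that sum was Csf1r, with a log2 difference of −0.50. The other microglia markers were higher, with Cx3cr1 at 0.13, Aif1 at 0.20 and C1qa at 0.36. The 5 meningeal markers summed to 96.04 to 157.7 in bitransgenic and 162.9 to 600.5 in monotransgenic arrays of experiment 2, and to 85.09 to 206.7 in bitransgenic and 95.11 to 956.7 in monotransgenic arrays of set 3. The part of these cells in the segment result was not tested. In tissue RNA, fewer cells of a type and less RNA per cell cannot be told apart.

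In experiment 2 the 4 tested genes did not share a direction, and no difference was called. Wdr60 was lower in all 3 bitransgenic arrays, at 14.15, 40.81 and 36.28, against 49.77, 48.11 and 73.61 in monotransgenic arrays. These values did not overlap, although the groups did after quantile normalization. Ptprn2 read 279.7, 110.2 and 279.3 in bitransgenic arrays, against 228.6, 288.7 and 392.5 in monotransgenic arrays. The value of 110.2 was the lowest Ptprn2 level of all 21 arrays and came from the array with the highest actin 3′ to 5′ log2 ratio, 6.45. Esyt2 read 26.91, 47.67 and 49.35 in bitransgenic arrays, against 38.44, 27.29 and 41.43 in monotransgenic arrays. Ncapg2 read 22.75, 51.66 and 43.39 in bitransgenic arrays, against 31.77, 25.06 and 46.57 in monotransgenic arrays. For both genes 2 of the 3 bitransgenic arrays were above the monotransgenic median.

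The log2 differences of experiment 2 were −0.49 ± 0.25 for Wdr60, −0.43 ± 0.27 for Ptprn2, 0.37 ± 0.24 for Esyt2 and 0.36 ± 0.28 for Ncapg2 (SE), with limma adjusted p of 0.339, 0.429, 0.459 and 0.535. None of the 4 passed, against 0.311% of all probe sets, 0 were lower at an unadjusted p under 0.05, against 7.9%, and 0 were lower without overlap, against 4.7%. The median was −0.04, against 0.011 over all probe sets. Without monotransgenic replicate 2, or on the deposited scale, 1 member was lower without overlap. On the deposited scale the differences of Esyt2 and Ncapg2 were smaller, at 0.13 and 0.12, and that of Wdr60 was −0.69. Without the 2 arrays of highest actin ratio, a choice made after seeing the data, the differences were −0.72 for Wdr60, −0.23 for Ptprn2, 0.31 for Esyt2 and 0.14 for Ncapg2, and none passed.

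In set 3 Esyt2 gave the clearest separation, at 24.81, 30.63 and 15.94 in bitransgenic arrays, against 39.17, 34.01 and 60.32 in monotransgenic arrays. The groups did not overlap. Ncapg2 read 17.99, 37.81 and 21.49 in bitransgenic arrays, against 33.73, 30.75 and 70.22 in monotransgenic arrays, with 1 bitransgenic array inside the monotransgenic range. Wdr60 read 46.43, 38.74 and 49.48 in bitransgenic arrays, against 66.3, 43.42 and 73.12 in monotransgenic arrays. A single monotransgenic array, replicate 2, was as low as the bitransgenic ones for Wdr60. Ptprn2, the gene with the largest difference in set 1, read 391.1, 341.5 and 249.3 in bitransgenic arrays, against 453.8, 323.6 and 281.8 in monotransgenic arrays, and the groups were interleaved.

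The log2 differences of set 3 were −0.51 ± 0.24 for Esyt2, −0.43 ± 0.28 for Ncapg2, −0.25 ± 0.25 for Wdr60 and −0.09 ± 0.27 for Ptprn2 (SE), each with a limma adjusted p of 1. The limma fit called 0 of all probe sets (0%) in this comparison, and 2.82% of them were lower at an unadjusted p under 0.05. Esyt2 was the single member in that state and the single one lower without overlap, where 6.5% of all probe sets were. The median was −0.34, against 0.01 over all probe sets. The Ptprn2 difference changed sign without monotransgenic replicate 1, at 0.10, and without bitransgenic replicate 3, at 0.07. Without monotransgenic replicate 2 the differences of Esyt2, Ncapg2, Wdr60 and Ptprn2 were −0.63, −0.59, −0.42 and −0.14, and 2 members were lower without overlap. That count was also 2 without bitransgenic replicate 2.

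Averaged over the 3 sets with equal weight, all 4 members were lower in bitransgenic arrays and none passed, against 0.0518% of all probe sets. Ptprn2 had a log2 difference of −0.44 ± 0.15 and Wdr60 of −0.41 ± 0.14 (SE), with limma adjusted p of 0.253 and 0.248. Both were lower at an unadjusted p under 0.05, as were 5.38% of all probe sets. Esyt2 had −0.23 ± 0.13 and Ncapg2 −0.21 ± 0.16 (SE), with limma adjusted p of 0.548 and 0.644. No member was free of overlap over the 3 sets, against 0.0222% of probe sets, and the median was −0.32, against 0.003. An exact two-sided permutation of genotype within each set, over 33600 labelings, gave p = 0.00461 for Wdr60, p = 0.0173 for Ptprn2, p = 0.194 for Esyt2, p = 0.284 for Ncapg2 and p = 0.618 for Vipr2. These single-gene values are not adjusted, and the genes were listed with earlier results known. By limma p over all probe sets tested, Wdr60 ranked 705 and Ptprn2 ranked 762. With each array left out in turn the exact p was 0.00101 to 0.0188 for Wdr60 and 0.00774 to 0.0452 for Ptprn2. With experiment 2 left out, a setting not planned for this test, the exact p was 0.00417 for Esyt2 and 0.0161 for Ncapg2. Experiment 2 was the set in which both genes were higher in bitransgenic arrays, so these smaller values are not separate support.

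The difference between sets was tested as an interaction. For Esyt2 the genotype difference of experiment 2 minus that of set 1 was 0.90 ± 0.32 (SE, limma adjusted p = 0.38), and for Ncapg2 it was 0.92 ± 0.37 (SE, limma adjusted p = 0.467). For Ptprn2 the difference of set 3 minus that of set 1 was 0.69 ± 0.35 (SE, limma adjusted p = 0.999). For Esyt2 set 3 minus experiment 2 was −0.88 ± 0.34 (SE, limma adjusted p = 0.556). No member passed, so a difference between the sets was not shown for any of the 4.

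Vipr2, which names the segment, was dim in every array, at percentiles of 4.88 to 43.4 within an array. With doxycycline removed its only probe set read 7.218, 2.699 and 1.177, and on the diet 8.266, 5.461 and 15.74, against 1.943, 3.924 and 10.22 in set 1 monotransgenic arrays. In experiment 2 Vipr2 read 11.34, 2.045 and 9.762 in bitransgenic arrays, against 21.2, 1.123 and 1.717 in monotransgenic arrays. In set 3 it read 0.7844, 0.776 and 12.12 in bitransgenic arrays, against 14.35, 8.12 and 10.78 in monotransgenic arrays. The groups overlapped in each of the comparisons within a set, and the median percentile of Vipr2 within an array was 25.1, against 56.9 to 85 for the brightest probe sets of the other 4 genes. At this signal a genotype difference in Vipr2 was not detectable.

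The second probe sets of Ptprn2 and Esyt2 did not follow the first on the diet in set 1. The dim Ptprn2 probe set read 11.95, 19.24 and 8.037 with doxycycline removed and 17.44, 19.66 and 10.59 on the diet, against 5.493, 2.903 and 12.03 in set 1 monotransgenic arrays. In a fit without the filter its diet minus monotransgenic log2 difference was 0.47, opposite in sign to the bright probe set, with a limma adjusted p of 1. The dim Esyt2 probe set read 1.271, 16.24 and 1.625 with doxycycline removed and 19.47, 20.5 and 5.779 on the diet, against 3.794, 2.685 and 15.06 in monotransgenic arrays. Its difference was 0.40 for diet minus monotransgenic, also with a limma adjusted p of 1. With doxycycline removed the dim Ptprn2 probe set differed by 0.375, again opposite to the bright one, and the dim Esyt2 probe set by −0.063. In experiment 2 the dim probe sets of Ptprn2 and Esyt2 differed by −0.225 and 0.075, and in set 3 by −0.083 and −0.372. In both of these sets each had the sign of its bright probe set. Both averaged under the filter limit of 4.9 on the log2 scale, at 4.83 and 4.69.

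Read as a genotype marker in the deposited values, no segment gene split the 12 bitransgenic from the 9 monotransgenic arrays. Wdr60 came nearest. It was 14.15 to 50.82 in bitransgenic arrays (median 36.43), against 43.42 to 73.61 in monotransgenic arrays (median 56.03), and 9 of 12 bitransgenic arrays were below the lowest monotransgenic one. The bright Ptprn2 probe set was 110.2 to 391.1 in bitransgenic arrays (median 254), against 228.6 to 453.8 in monotransgenic arrays (median 391.9), with 5 of 12 below. Esyt2 had 6 of 12 below and Ncapg2 had 4 of 12 below. Vipr2 had 2 of 12 below, with 0.776 to 15.74 in bitransgenic arrays (median 6.34), against 1.123 to 21.2 in monotransgenic arrays (median 8.12). Within its own set, 9 bitransgenic arrays of 12 were below the lowest monotransgenic array for Wdr60, Esyt2 and Ncapg2 each, and 8 for Ptprn2. In set 1 these counts were 6 of 6 for Ptprn2 and Ncapg2 and 5 of 6 for Esyt2 and Wdr60. Over the 3 sets the dim probe sets of Ptprn2 and Esyt2 each had 5 of 12. The share of all probe sets that reach such counts was not computed, so the counts are only a description.

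The mean log2 level of the 4 tested genes was set against the monotransgenic mean of the same set. It was −0.48, −0.50 and −0.43 with doxycycline removed and −0.72, −0.82 and −0.63 on the diet, against −0.05, 0.08 and −0.03 in set 1 monotransgenic arrays. In experiment 2 it was −0.39, 0.04 and 0.21 in bitransgenic arrays, against −0.07, −0.24 and 0.31 in monotransgenic arrays. In set 3 it was −0.28, −0.18 and −0.51 in bitransgenic arrays, against 0.03, −0.25 and 0.22 in monotransgenic arrays. The order by genotype was complete in set 1 and broken in the other 2 sets. The lowest monotransgenic array of experiment 2 and that of set 3, both replicate 2, were also those with the lowest Ogn of the monotransgenic arrays, at 79.58 and 41.22, against 152.6 to 823.7 in the other monotransgenic arrays. Their Rtn4r was 185.2 and 111.7. The value of 185.2 was the highest of the 12 diet and monotransgenic arrays, and the lowest bitransgenic array without a doxycycline diet read 253.6.

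**Figure D3:**
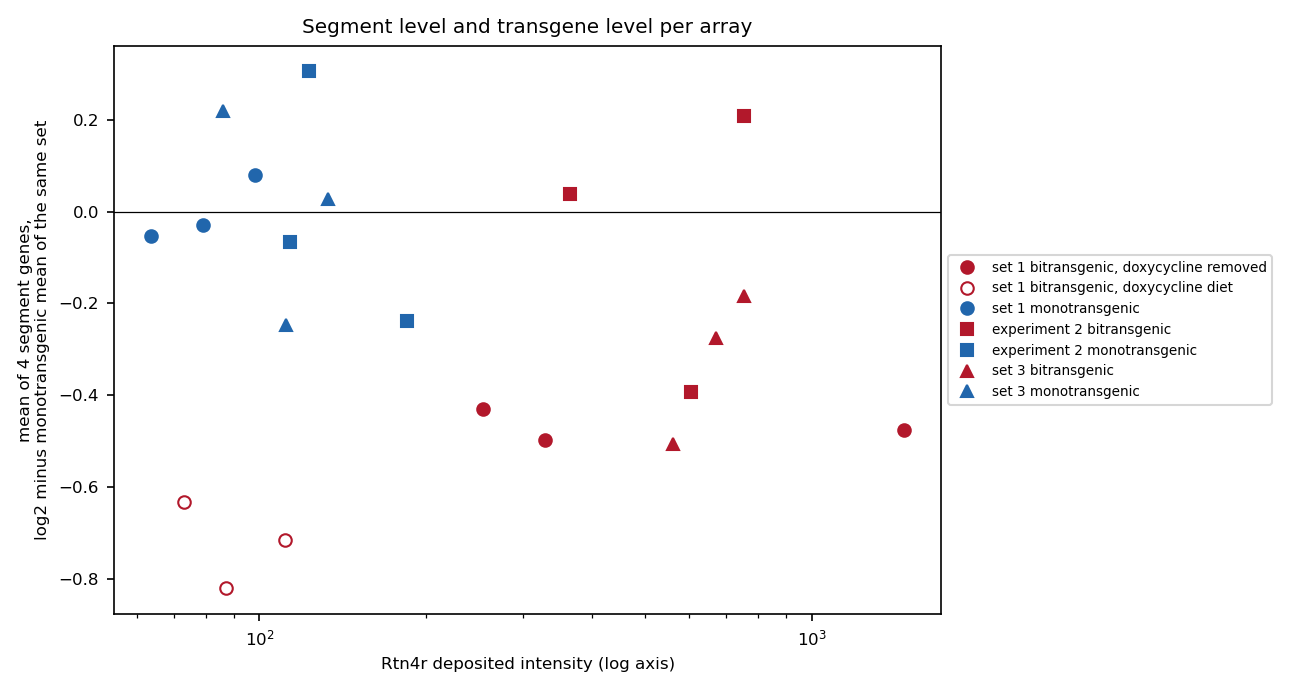
Mean of Wdr60, Esyt2, Ncapg2 and Ptprn2 in each array (vertical axis, log2, minus the monotransgenic mean of the same set) against the deposited Rtn4r intensity (horizontal log axis), with 1 symbol per array. The 3 arrays on the doxycycline diet combine the lowest segment means, −0.82 to −0.63, with Rtn4r of 73.1 to 111.2, and 2 arrays of experiment 2 have high Rtn4r with segment means of 0.04 and 0.21.

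Genes outside the segment gave the local background. Of the 10 protein-coding genes with a probe set before Vipr2 and the 8 between Ptprn2 and the chromosome end, 5 on each side were tested, and none was called in any of the 6 comparisons. The median diet minus monotransgenic difference was 0.12 over the 5 before and 0.11 over the 5 after, against −0.66 for the segment. The nearest tested neighbours were Zfp386, a zinc finger gene, at 0.41 before Vipr2, and Rapgef5, a guanine nucleotide exchange factor gene, at −0.09 after Ptprn2. Over the other chromosome 12 genes, 457 of 619 were tested, with a median of 0.01 and 31 lower without overlap in that comparison. In experiment 2 the medians of the genes before, the genes after and the segment were close, at 0.06, −0.02 and −0.04. With doxycycline removed against monotransgenic they were 0.19, 0.14 and −0.45 in that order. They were 0.03, 0.06 and −0.34 in set 3, and 0.17, 0.05 and −0.32 over the 3 sets.

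A gene beyond the segment was lower too. Itgb8, the integrin β8 gene and the sixth gene after Ptprn2 with a probe set, read 812.4, 1015 and 665.3 with doxycycline removed and 1027, 1044 and 1367 on the diet, against 1478, 1642 and 1509 in set 1 monotransgenic arrays. The bitransgenic arrays did not overlap the monotransgenic ones, and the share of all probe sets in that state was not computed. Its log2 difference was −0.93 ± 0.24 with doxycycline removed (SE, limma adjusted p = 0.234) and −0.43 ± 0.24 on the diet (SE, limma adjusted p = 1). In set 3 Itgb8 read 743.1, 698.3 and 820.9 in bitransgenic arrays, against 1555, 762.8 and 1400 in monotransgenic arrays, where replicate 2 was again low. In experiment 2 Itgb8 overlapped, at 856.7, 860.8 and 1088 in bitransgenic arrays, against 1124, 673.4 and 1301 in monotransgenic arrays. Its log2 difference there was −0.17 ± 0.24 (SE, limma adjusted p = 0.762). Over the 3 sets the Itgb8 difference was −0.51 ± 0.13 (SE, limma adjusted p = 0.144). Over the same sets 4 of the 5 tested genes before Vipr2 and 3 of the 5 after Ptprn2 were higher. Tmem196, the eighth gene after Ptprn2, differed by 0.35 (limma adjusted p = 0.272).

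**Figure D4:**
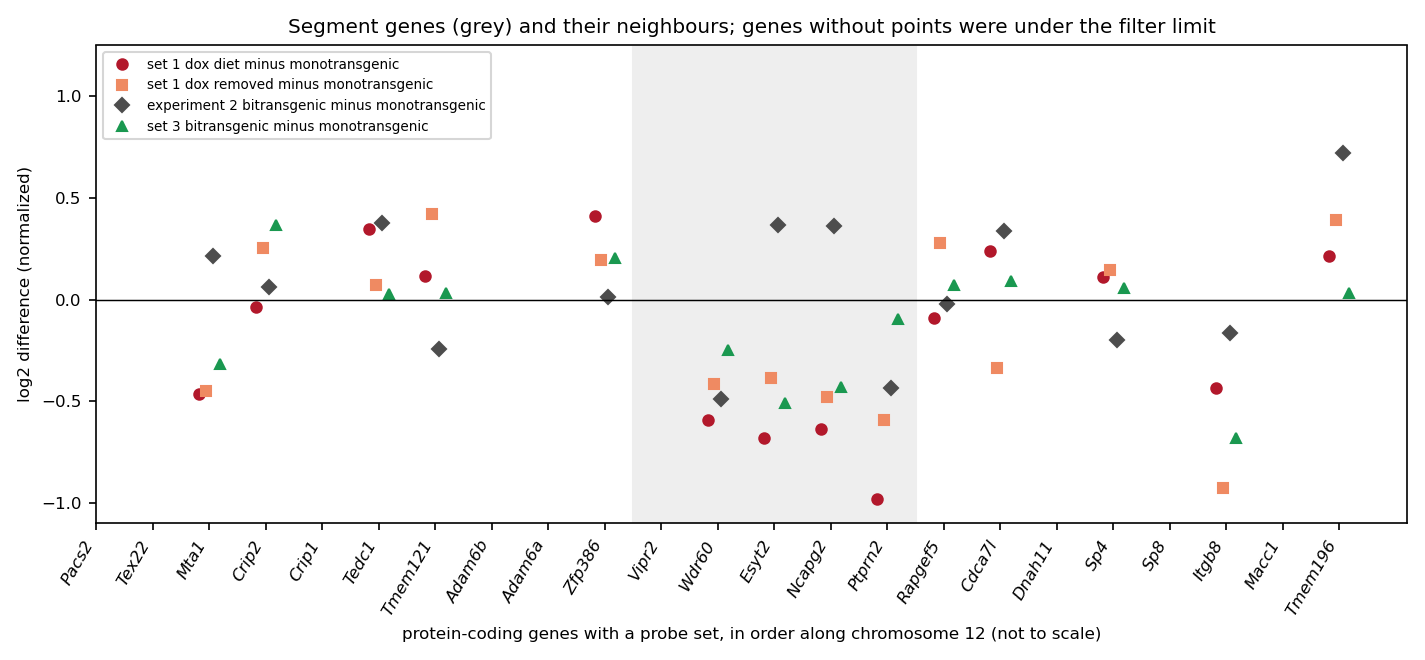
Log2 difference (vertical axis, normalized scale) of the segment genes, on grey, and of their protein-coding neighbours in chromosome order (horizontal axis, not to scale), for 4 comparisons. On the diet in set 1 the 4 tested segment genes lie at −0.98 to −0.59, while in that comparison the 10 tested neighbours lie between −0.46 for Mta1 and 0.41 for Zfp386.

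The pathways in which the segment genes act were read from lists of named partners. Of 47 partner genes tested, 0 passed in any of the 6 comparisons by limma, with a lowest adjusted p of 0.12. Among 8 genes of VIP and PACAP signalling the median difference over the 3 sets was −0.09, and those with the lowest p were the PACAP receptor gene Adcyap1r1 at −0.35, the adenylyl cyclase gene Adcy1 at −0.18 and the PACAP gene Adcyap1 at −0.14. Among 11 dense-core vesicle genes, the partners of Ptprn2, the median was 0.13. The secretogranin gene Scg2 had the lowest p of that list, at −0.88 ± 0.25 (SE, limma adjusted p = 0.194), followed by Cadps, which primes the vesicles, at 0.18 and the secretogranin gene Scg3 at 0.15.

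Among 9 genes of membrane contact tethers and lipid transfer, the partners of Esyt2, the median was −0.19. Osbpl8, a lipid transfer gene, differed by −0.27, Vapb, which anchors such proteins at the endoplasmic reticulum, by −0.26 and Gramd1a, a sterol transfer gene, by −0.19. Among 6 condensin genes the median was −0.06, with the condensin I gene Ncapd2 at −0.39, the condensin II gene Ncapd3 at −0.13 and Smc4, an ATPase of both complexes, at −0.10. Among 13 genes of dynein-2 and intraflagellar transport, the partners of Wdr60, the median was −0.02, with Wdr35 at −0.17, Dync2li1 at 0.18 and Ift140 at 0.10. Over the 3 sets the smallest adjusted p among these 9 named genes was 0.343 by limma, for Ncapd2, and in experiment 2 it was 0.12, for Wdr35 at −0.56.

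As a description, 12495 genes were ranked by Pearson's r with the mean of the 4 segment genes over the 21 arrays, after each set was centred on its own mean. The arrays share genotype and tissue content, so the r values carry the genotype difference itself. The highest were Pik3r1, a regulatory subunit of phosphoinositide 3-kinase, at 0.85, Ogn at 0.84, Ehbp1l1 at 0.81, the enkephalin precursor gene Penk at 0.80 and the transcription factor gene Tox3 at 0.80. The lowest were 2900026A02Rik at −0.83, Nrip3 at −0.76 and Wrap73 at −0.74. None of these 8 genes lies on chromosome 12. Of them, Ogn, Penk and Tox3 were called over the 3 sets, at −2.65 ± 0.40, −1.59 ± 0.29 and −0.83 ± 0.15 (SE), with limma adjusted p of 0.00982, 0.0366 and 0.028.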

How the data were processed

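Dentate gyrus RNA of mouse was measured on Affymetrix arrays. The deposited values are linear intensities, 1 per probe set, scaled by the authors as the values show: every array has the same mean after trimming 2% of probe sets at each end. The scanner software is not given in the sources used. Control probe sets (64 of 45101) were left out. Here log2(intensity + 16) was quantile normalized over 21 arrays, and the upper 60% of probe sets by mean over all arrays (limit 4.9) were fitted with limma 3.58.1 in R 4.3.3, with 1 coefficient per group, 14 residual degrees of freedom, a variance trend and Benjamini-Hochberg adjustment over all 27022 probe sets tested. Differences are on the log2(intensity + 16) scale, which understates the change of dim genes. Replicate numbers follow accession order and pair no samples. The fit was tested on simulated data. The number of arrays limits the precision.

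The gene names come from the platform annotation updated by Entrez ID (34945 probe sets with 1 symbol, 34741 matched). The genes named are the segment genes, Rtn4r, the flanking genes, up to 3 partners of lowest p in each of 5 lists, and the 5 highest and 3 lowest correlated genes. Ogn and the other markers were named after their values were seen. The members and lists were chosen with earlier results of these data known. Alternatives covered the pseudocount, the scaling, the filter, probe sets per gene, array weights, the variance trend and each set fitted alone. They also covered the threshold, a title prefix in set 3 and the left-out arrays. Leaving out the 2 arrays with the highest actin ratio was added after seeing the data. The exact test within set 1 alone, and the alternatives of the exact tests and of the overlap counts, were also not planned.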

Additional observations from a re-analysis of the deposited data

How the results depend on the processing

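Leaving out each array in turn gave 0 called members in every comparison. With array weights 1 member was called on the diet against monotransgenic mice (Ptprn2), where the count was otherwise 0. With the title prefix as a factor the set 3 differences were 0.071 for Ptprn2, which is reversed, −0.74 for Ncapg2, −0.70 for Esyt2 and −0.14 for Wdr60. On the deposited scale, without quantile normalization, the exact p of Esyt2 over the 3 sets was 0.0322, and the members lower without overlap numbered 2 for doxycycline removed against monotransgenic and 1 in experiment 2. Without experiment 2, the set in which both genes were higher in bitransgenic arrays, the exact p was 0.00417 for Esyt2 and 0.0161 for Ncapg2. The cause of these changes was not tested.

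With each array left out, the removed minus diet difference ran between −0.034 and 0.294 for Wdr60 and between −0.032 and 0.426 for Ncapg2, and the set 3 difference of Ptprn2 between −0.247 and 0.103. The exact p in set 1 ran between 0.0179 and 0.0536 for Ptprn2, 0.0179 and 0.107 for Esyt2, 0.0179 and 0.143 for Ncapg2, 0.0179 and 0.0893 for Wdr60, and 0.357 and 0.911 for Vipr2. Over the 3 sets the exact p of Vipr2 ran between 0.358 and 0.901. The count of members lower without overlap ran between 1 and 3 for doxycycline removed against monotransgenic, 0 and 1 in experiment 2, and 1 and 2 in set 3, and it was 4 in every fit on the diet. Vipr2, low on the intensity scale, moved most with the pseudocount: its set 3 difference was −1.77 with a pseudocount of 1. No paired analysis was possible because the replicate numbers follow accession order and tie no samples, and the title prefix that some set 3 samples of both genotypes share, fitted as a factor here, has no stated meaning.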
